A study of Drosophila melanogaster with 9 samples.

Results

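The Notch pathway genes described here are deltex and 8 partners, dx, N, Dl, Ser, Su(H), H, mam, neur and numb, followed across arrays of fly muscle that overexpressed Foxo or Mnt. The list joins known pathway genes to dx, which was chosen by its measured signal, lower in Foxo than in Mnt arrays of this study. The platform annotation gives 5 of the 9 genes a probe set of their own, which are dx, numb, neur, H and mam, with 7 probe sets among the 13647 that name 1 gene. The other 4, N, Dl, Ser and Su(H), have none there and were not analysed here. These 5 genes stand among 11982 genes tested.

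Male *Drosophila melanogaster* gave the RNA, labelled as skeletal muscle, and each sample was read on its own Affymetrix Drosophila Genome 2.0 array. Foxo flies carried UAS-Foxo and Mnt flies carried UAS-Mnt, each expressed in muscle according to the title of the series, and control flies are described only as controls. Each group had 3 independent biological replicates, and RNA came from at least 15 males per group, from flies gathered no later than 24 h after eclosion and kept at 25 °C, 20 to a vial. The labels name no driver line, strain or age at sampling. Foxo is a transcription factor that insulin signalling restrains, and Mnt is a repressor that pairs with Max and opposes Myc.

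Notch is a receptor on the cell surface. When Delta or Serrate on a neighbouring cell binds and pulls on it, the receptor is cut and its inner part enters the nucleus, where it joins Su(H) and mastermind to switch on genes such as those of the Enhancer of split complex. Hairless keeps Su(H) in a repressing state, neuralized drives endocytosis of the ligands, numb lowers Notch in one daughter of an asymmetric division, and deltex, a ubiquitin ligase, binds Notch and steers it through endosomes. In the fly, Notch signalling holds muscle precursors undifferentiated, and its activity is known to fall as adult flight muscle forms.

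The overexpressed genes and the makeup of the samples bear on every value below. Signals are log2 RMA values, so a difference of 1 is a 2-fold change in level, and signals of different probe sets are not compared as amounts. The foxo signal was 11.95, 9.52 and 10.22 in Foxo replicates 1, 2 and 3, with controls at 9.42, 9.50 and 9.05. The array labelled Foxo 2 thus lay at 1.15 times the control mean. Mnt lay at 9.85, 11.69 and 11.71 in Mnt replicates 1, 2 and 3, against 8.41 to 8.57 in controls. The mean log2 signal of 18 sarcomere genes was 12.76 to 13.21 over all arrays. That of 9 neuronal genes was 8.21 to 8.54, and elav, which marks neurons, was at 8.94 to 9.36, so RNA of other tissues was present. A testis score, the mean log2 signal of 18 testis genes, was 7.07 to 7.99 in Foxo arrays, 5.17 to 7.47 in Mnt arrays and 5.17 to 7.09 in controls. An accessory gland score over 12 genes was 9.30 in Foxo replicate 3 and at most 5.31 elsewhere. In such mixed RNA, fewer cells of a type and less RNA per cell cannot be told apart.

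dx, the gene by which the list was drawn up, was lower in Foxo arrays and higher in Mnt arrays than in controls, and its 3 groups did not overlap. Its signal was 7.61, 7.87 and 7.78 in Foxo replicates 1, 2 and 3. In Mnt replicates 1, 2 and 3 it was 8.55, 8.83 and 8.93. In control replicates 1, 2 and 3 it was 8.12, 8.44 and 8.29. Every Foxo array was therefore below every control, and every control was below every Mnt array. The means were 7.75 ± 0.13 in Foxo, 8.77 ± 0.20 in Mnt and 8.28 ± 0.16 in control arrays (SD, n = 3 each).

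On the log2 scale dx differed by -1.02 ± 0.12 between Foxo and Mnt arrays (limma SE), a level 2.02 times lower in the Foxo arrays. Against control the difference was -0.53 ± 0.12 in Foxo arrays and 0.49 ± 0.12 in Mnt arrays, or 1.44 times lower and 1.40 times higher. The rule used these Foxo and Mnt arrays, so the values describe dx and carry no test. Both differences against control share the control arrays. The nearest arrays of a pair of groups were 0.68 apart on the log2 scale for Foxo and Mnt, 0.25 for Foxo and control, and 0.11 for Mnt and control. Among all genes, 50 (0.417%) had the same order of all 9 arrays by group. Taken singly, 13.8% of all genes were lower in every Foxo array than in every Mnt array, 15.4% were lower in every Foxo array than in every control, and 3.67% were higher in every Mnt array than in every control.

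**Figure D1:**
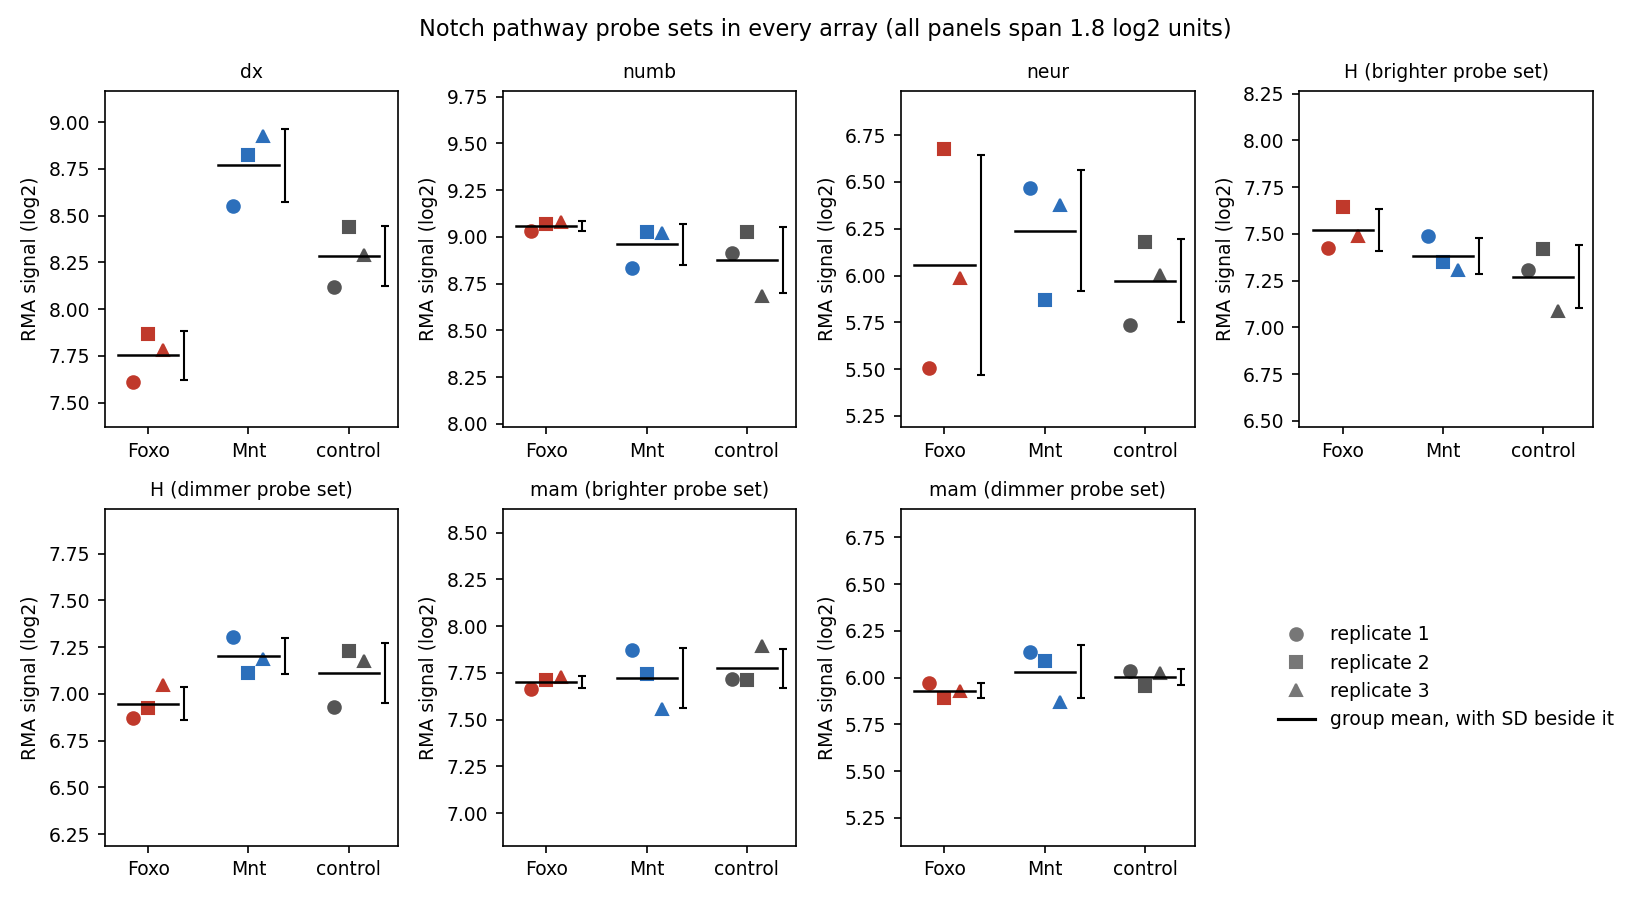
Signals (RMA, log2) of the 7 probe sets of dx, numb, neur, H and mam in every array, with Foxo, Mnt and control from left to right, replicates as symbols, bars at group means and error bars of 1 SD. The dx groups are separate, with Foxo at 7.61 to 7.87, Mnt at 8.55 to 8.93 and control at 8.12 to 8.44, while Mnt and control overlap in the other panels.

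The order of dx within the overexpression groups was set beside the overexpressed gene. In Foxo arrays it was lowest in replicate 1, where foxo was highest at 11.95, and its highest Foxo value came from replicate 2, where foxo was lowest at 9.52. In Mnt arrays it was lowest in replicate 1, where Mnt was lowest at 9.85. With 3 arrays in a group these orders are a description and were not tested. The array labelled Foxo 2 had a foxo signal close to the controls, yet its dx signal of 7.87 lay below the lowest control at 8.12. Without that array the difference of dx was -0.59 against control and -1.07 against Mnt. Leaving out any 1 array kept the Foxo minus Mnt difference between -1.12 and -0.94.

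Signals of other tissues were set beside dx. Over the 9 arrays its Pearson correlation with the testis score was -0.457 and its Spearman correlation -0.433, and without the 2 arrays farthest from the median score, control replicate 3 and Mnt replicate 2, Pearson's r was -0.337. With that score added to the fit, the difference of dx was -0.53 ± 0.16 (limma SE) for Foxo against control and 0.48 ± 0.13 for Mnt against control. For Foxo against Mnt it was -1.02 ± 0.15. Scores of haemocyte, neuronal and glial markers were lower on average in the Foxo arrays than in controls, as were 62.6% of all genes. The haemocyte score, over all 6 genes listed, was 7.77 to 7.85 in Foxo arrays, 7.98 to 8.18 in Mnt arrays and 7.98 to 8.22 in controls, with 5 of 6 genes lower in Foxo than in control arrays and He dimmest at a mean of 4.49. NimC1 differed most, at 8.12, 7.89 and 8.09 in Foxo replicates 1, 2 and 3 against 8.75, 9.02 and 9.29 in control replicates 1, 2 and 3, and srp was higher. The neuronal score, over 9 of 10 genes, was 8.21 to 8.41 in Foxo arrays, 8.37 to 8.54 in Mnt arrays and 8.44 to 8.46 in controls, with 8 of 9 genes lower in Foxo than in control arrays. The glial score, over 3 of 4 genes, was 8.31 to 8.51 in Foxo arrays, 8.49 to 8.69 in Mnt arrays and 8.49 to 8.63 in controls, with 3 of 3 genes lower in Foxo than in control arrays. Of these, moody barely differed, at 9.84, 9.63 and 9.85 in Foxo replicates 1, 2 and 3 against 9.79, 9.74 and 9.81 in control replicates 1, 2 and 3. The part of testis RNA or of these cells in the dx values was not tested.

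**Figure D2:**
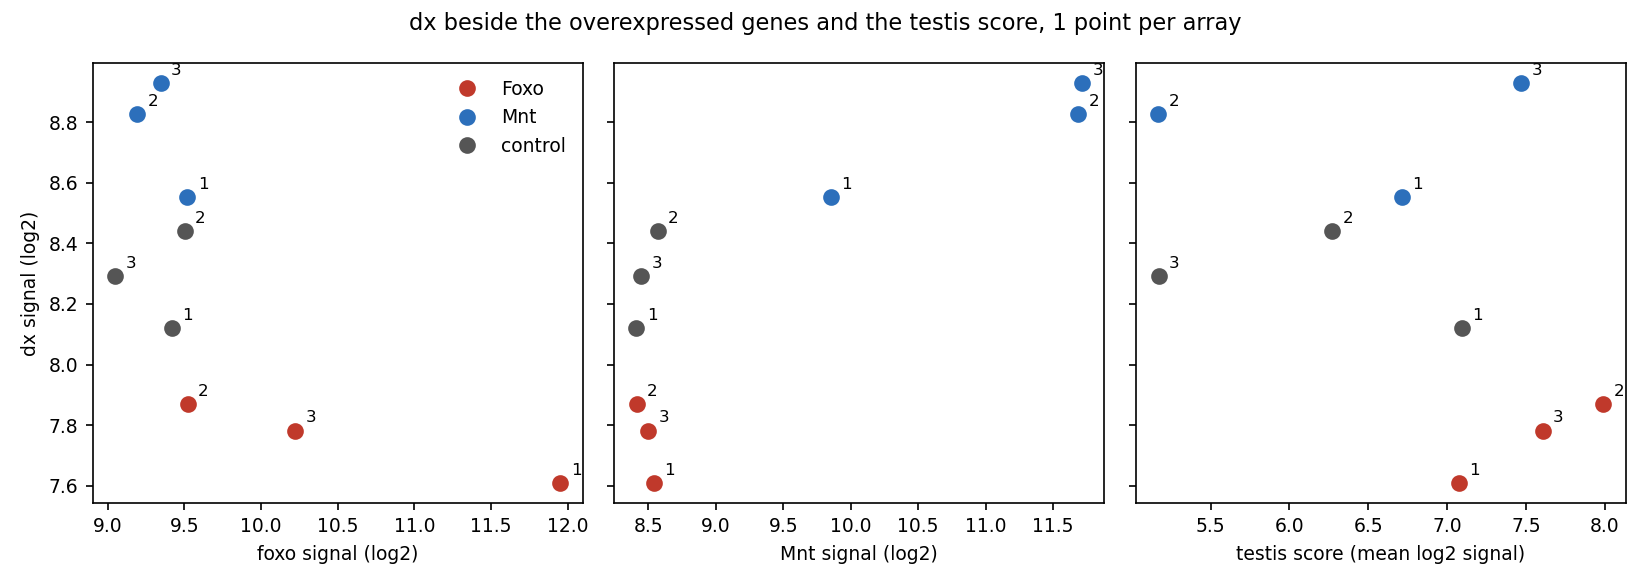
The dx signal (log2, vertical axis) in each of 9 arrays against the foxo signal, the Mnt signal and the testis score (all log2), with replicate numbers beside the points. Foxo replicate 1 has the highest foxo signal (11.95) and the lowest dx (7.61), and the array labelled Foxo 2 has low dx (7.87) at a foxo signal of 9.52.

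The genes next to dx in the Release 6 annotation did not show its pattern. These neighbours were chosen after the values of dx were seen. Agxt, an aminotransferase gene, averaged 9.75 ± 0.23 in Foxo, 9.73 ± 0.26 in Mnt and 9.63 ± 0.12 in control arrays (SD, n = 3 each). CG34417 averaged 11.91 ± 0.03 in Foxo, 11.97 ± 0.06 in Mnt and 11.92 ± 0.06 in control arrays. The log2 fold change of Agxt in Foxo versus control was 0.12 ± 0.15 (SE) and that of CG34417 was -0.01 ± 0.05, with overlapping groups in both.

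Among 5990 genes with a mean signal at or above the median gene, the 5 whose signal followed dx most closely over the 9 arrays were Cad87A, Ypel, CG4615, Slip1 and Bcs1, with Pearson correlations of 0.976, 0.973, 0.970, 0.965 and 0.961. Cad87A is a cadherin gene and Bcs1 encodes a mitochondrial chaperone for respiratory complex assembly. Slip1 had the widest range of the 5, with means of 8.55 in Foxo, 9.36 in Mnt and 8.83 in control arrays. The 3 genes that ran most against dx were CG2691, Usp14, a deubiquitinase of the proteasome, and mEFTu1, a mitochondrial translation elongation factor, with correlations of -0.936, -0.934 and -0.928. The mean of mEFTu1 was 10.72 in Foxo, 10.16 in Mnt and 10.38 in control arrays. These correlations follow the group differences by which dx was chosen and are given as a description. By the brightest probe set of each gene, the other members did not track dx. Their correlations with it over the same arrays were 0.322 for neur, -0.197 for numb, -0.370 for H and -0.040 for mam. The dimmer H probe set, not used there, had group means in the order of dx. They were 6.95 in Foxo, 7.11 in control and 7.20 in Mnt arrays.

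The question for the remaining members was whether Foxo or Mnt shifted other parts of the pathway. By limma, 0 of the 4 members other than dx passed an adjusted p under 0.05 (Benjamini-Hochberg over all genes) in Foxo versus control, where 0.100% of all genes passed, and 0 of 4 passed in Mnt versus control, where 0% of all genes did. At an unadjusted p under 0.05 the counts were also 0 of 4 and 0 of 4, where 17.8% of all genes in Foxo versus control and 3.54% in Mnt versus control were under it. Tests of these members between Foxo and Mnt, the contrast that chose dx, are not reported here. H, by the brighter of its 2 probe sets, and numb, 2 of the 4, were higher in every Foxo array than in every control, as were 8.24% of all genes. The margins were narrow, with the lowest Foxo and highest control values at 7.425 and 7.420 for H and 9.030 and 9.029 for numb. The other H probe set was lower on average in Foxo arrays than in controls. In Mnt versus control 0 of 4 had groups that did not overlap, against 8.91% of all genes.

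numb, the adaptor that lowers Notch at the membrane, had little spread in Foxo arrays. Its signal was 9.03, 9.07 and 9.08 in Foxo replicates 1, 2 and 3, 8.83, 9.02 and 9.02 in Mnt replicates 1, 2 and 3, and 8.91, 9.03 and 8.68 in control replicates 1, 2 and 3. The Foxo arrays all lay just above the highest control, while Mnt and control overlapped. In Foxo versus control the log2 fold change was 0.18 ± 0.09 (limma SE), with a 95% interval of -0.03 to 0.40 (limma adjusted p = 0.318), and in Mnt versus control it was 0.08 ± 0.09 with an interval of -0.13 to 0.30 (limma adjusted p = 0.999).

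neur, the ubiquitin ligase that acts on the ligands, had the widest spread of the members within groups. It lay at 5.50, 6.67 and 5.99 in Foxo replicates 1, 2 and 3, at 6.47, 5.87 and 6.38 in Mnt replicates 1, 2 and 3, and at 5.74, 6.18 and 6.00 in control replicates 1, 2 and 3. The Foxo arrays held both the lowest and the highest value, the highest in the array labelled Foxo 2, and all 3 groups overlapped. The log2 fold change was 0.08 ± 0.30 in Foxo versus control (95% interval -0.59 to 0.76, limma adjusted p = 0.889) and 0.27 ± 0.30 in Mnt versus control (-0.41 to 0.94, limma adjusted p = 0.999). Without the array labelled Foxo 2 the value in Foxo versus control was -0.23.

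H, the gene of Hairless, has 2 probe sets, and they did not move together. The brighter was at 7.43, 7.64 and 7.49 in Foxo replicates 1, 2 and 3, at 7.49, 7.35 and 7.30 in Mnt replicates 1, 2 and 3, and at 7.30, 7.42 and 7.09 in control replicates 1, 2 and 3. Its Foxo arrays lay just above the controls, and the log2 fold change came to 0.25 ± 0.11 (limma adjusted p = 0.279) with a 95% interval of -0.00 to 0.50. The dimmer probe set averaged 6.95 ± 0.09 in Foxo, 7.20 ± 0.10 in Mnt and 7.11 ± 0.16 in control arrays (SD, n = 3 each). Its log2 fold change in Foxo versus control was -0.16 ± 0.11 (limma adjusted p = 0.410 over all probe sets), the other direction. Over the 9 arrays the 2 probe sets had a Pearson correlation of -0.264. In Mnt versus control the brighter had 0.11 ± 0.11 (limma adjusted p = 0.999) and the dimmer 0.09 ± 0.11. With the mean of both, the value of H in Foxo versus control was 0.04.

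mam, the coactivator mastermind, also has 2 probe sets, with a correlation of 0.705 over the 9 arrays. The brighter was at 7.67, 7.71 and 7.73 in Foxo replicates 1, 2 and 3, at 7.87, 7.74 and 7.56 in Mnt replicates 1, 2 and 3, and at 7.72, 7.71 and 7.90 in control replicates 1, 2 and 3. All 3 groups overlapped. Its log2 fold change was -0.07 ± 0.10 in Foxo versus control (95% interval -0.29 to 0.15, limma adjusted p = 0.686) and -0.05 ± 0.10 in Mnt versus control (-0.27 to 0.17, limma adjusted p = 0.999). The dimmer probe set had -0.07 ± 0.10 and 0.03 ± 0.10 in the same comparisons.

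**Figure D3:**
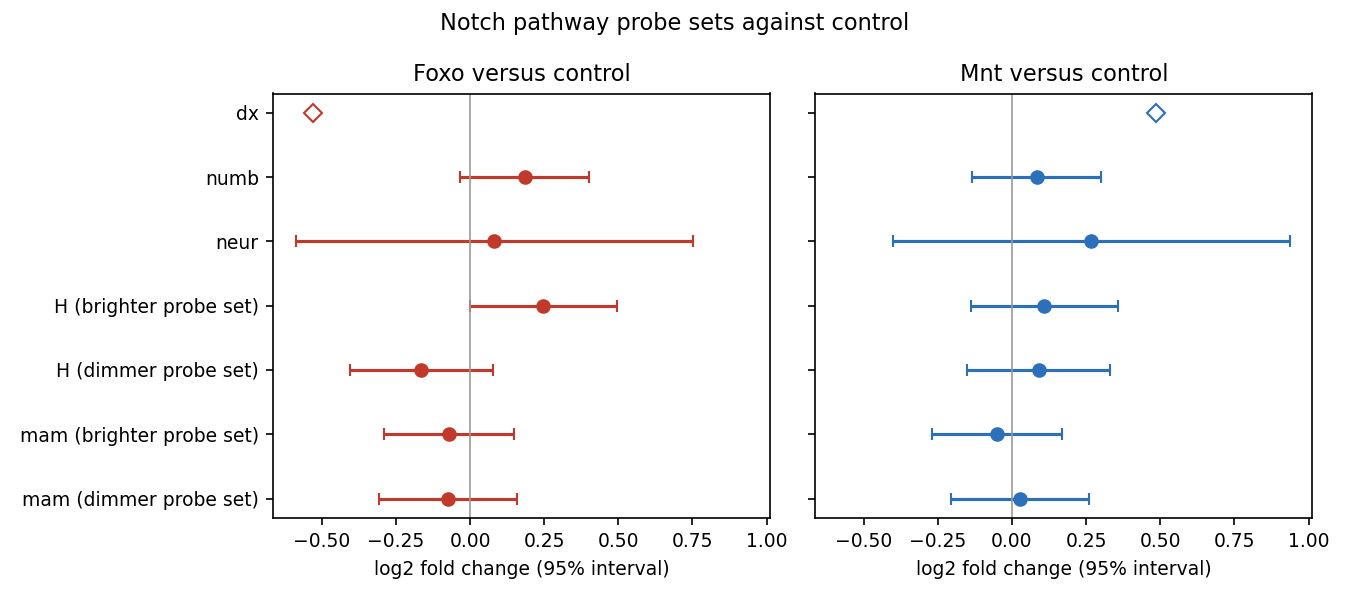
Log2 fold changes of the 7 probe sets in Foxo versus control (left) and Mnt versus control (right), with 95% intervals from the fit over all probe sets; dx is an open diamond with no interval because its values chose it. The intervals of numb, neur, H and mam hold 0 in both panels, and the 2 H probe sets lie on opposite sides of it in Foxo versus control.

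The testis score was set beside the 4 members as well. Its Pearson correlation over 9 arrays was 0.668 for H, 0.561 for numb, -0.546 for mam and 0.317 for neur, and Spearman's rho was 0.450, 0.550, -0.467 and 0.283 in the same order. Exact permutation p-values of Pearson's r were 0.0482, 0.102, 0.123 and 0.403, two-sided, and 0.165, 0.165, 0.165 and 0.403 after Benjamini-Hochberg adjustment over these 4. By Spearman the exact permutation p-values were 0.230, 0.133, 0.213 and 0.463, with adjusted values of 0.306 for H, numb and mam and 0.463 for neur. All permutations ran over the 9 arrays without regard to group. As the score averaged 7.56 in Foxo and 6.18 in control arrays, these correlations can also carry differences between groups. Without the 2 arrays farthest from the median score, r was 0.381 for H, 0.496 for numb, -0.331 for mam and 0.245 for neur. The scaling of the arrays changed these relations. After median centring r was -0.838 for mam (exact permutation p = 0.00448, adjusted 0.0179), 0.143 for H, -0.122 for numb and 0.0874 for neur (adjusted exact permutation p = 0.822 for each of these 3). Array medians themselves followed the score, at 5.71 in control replicate 3 and 5.72 in Mnt replicate 2, where it was 5.17. The median was 5.96 in the array labelled Foxo 2, where the score was 7.99. Centring thus takes a value tied to the score from every gene, so the p for mam is not a test of mam alone.

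A wider list of 70 pathway genes gave 58 measured genes that are no members. By limma 0 of 58 passed an adjusted p under 0.05 in Foxo versus control, where 0.100% of all genes did, and 0 of 58 in Mnt versus control, where 0% of all genes did. In Foxo versus control 39 of 58 were lower, with a median log2 fold change of -0.07, where the median of all genes was -0.06 and 62.6% were lower. An unadjusted p under 0.05 was found for 6 of 58 (10.3%), against 17.8% of all genes. All 6 were lower in the Foxo arrays, a direction with 9.51% of all genes, and 0 of 58 were higher, a direction with 8.31% of all genes. In Mnt versus control the median was -0.00 for the list and -0.00 for all genes, and 3 of 58 (5.17%) had an unadjusted p under 0.05, against 3.54% of all genes.

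Sugars added to Notch alter its folding and its choice of ligand, and by limma 0 of the 4 genes listed for this passed an adjusted p under 0.05 in Foxo versus control, where 0.100% of all genes did. Means were lower there for 4 of 4, fng, O-fut1, rumi and shams, with a median log2 fold change of -0.21, where 62.6% of all genes were lower. fng, the fringe glycosyltransferase that tunes which ligand Notch answers, was at 9.45, 9.37 and 9.42 in Foxo replicates 1, 2 and 3, against 9.57, 9.64 and 9.70 in control replicates 1, 2 and 3. Every Foxo array was thus below every control, as for 15.4% of all genes in this comparison. The log2 fold change of fng came to -0.22 ± 0.05 (limma SE, adjusted p = 0.236), and it did not pass. O-fut1, which adds fucose to Notch and helps it fold, had -0.24 ± 0.15 (limma adjusted p = 0.399), which was -0.39 without control replicate 1 and -0.097 without control replicate 2. In Mnt versus control 3 of the 4 were higher, with a median of 0.07.

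Of the genes that move or sort Notch and its ligands, TSG101 and Vps25, parts of the endosomal sorting complexes, were among the 6 with an unadjusted p under 0.05, and both were named after their values were seen. TSG101 averaged 10.45 ± 0.09 in Foxo and 10.65 ± 0.02 in control arrays (SD, n = 3 each), a log2 fold change of -0.20 ± 0.05 (limma adjusted p = 0.276). Vps25 had -0.18 ± 0.07 (limma adjusted p = 0.276). Among genes of the wider list with a mean signal at or above the median gene, the highest values in Foxo versus control were 0.16 ± 0.11 for AP-2mu, of the clathrin adaptor, 0.12 ± 0.07 for lqf, the fly epsin that ligand endocytosis needs, and 0.09 ± 0.06 for shrb, another sorting subunit, and the values of lqf and shrb turned to -0.016 and -0.045 after median centring of each array. Below that signal, and named after the values were seen, krz, the fly beta-arrestin, had 0.17 ± 0.22 and insv, a nuclear partner of Su(H), had -0.46 ± 0.27 (limma adjusted p = 0.374). Of the 13 genes of receptor trafficking, 6 had higher and 7 lower means in Foxo than in control arrays.

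In Mnt versus control, among genes of the wider list at or above the median signal, the highest values belonged to Nedd4, a ubiquitin ligase that acts on Notch, and to AP-2alpha. Nedd4 was at 8.42, 8.14 and 8.31 in Mnt replicates 1, 2 and 3, against 8.10, 8.07 and 7.98 in control replicates 1, 2 and 3. Its log2 fold change was 0.24 ± 0.10 (limma adjusted p = 0.999), and the mean of all its probe sets gave 0.12. AP-2alpha had 0.24 ± 0.10 and kuz, the protease that makes the first activating cut, 0.14 ± 0.09, both with a limma adjusted p of 0.999. The lowest among genes at or above that signal were ebi at -0.17 ± 0.08, da, a partner of proneural factors, at -0.15 ± 0.06 and the endosomal gene Hrs at -0.10 ± 0.09 (limma adjusted p = 0.999 for each). Below it, krz had 0.28 ± 0.22 and ato, a proneural factor, -0.25 ± 0.15, both named after their values were seen.

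**Figure D4:**
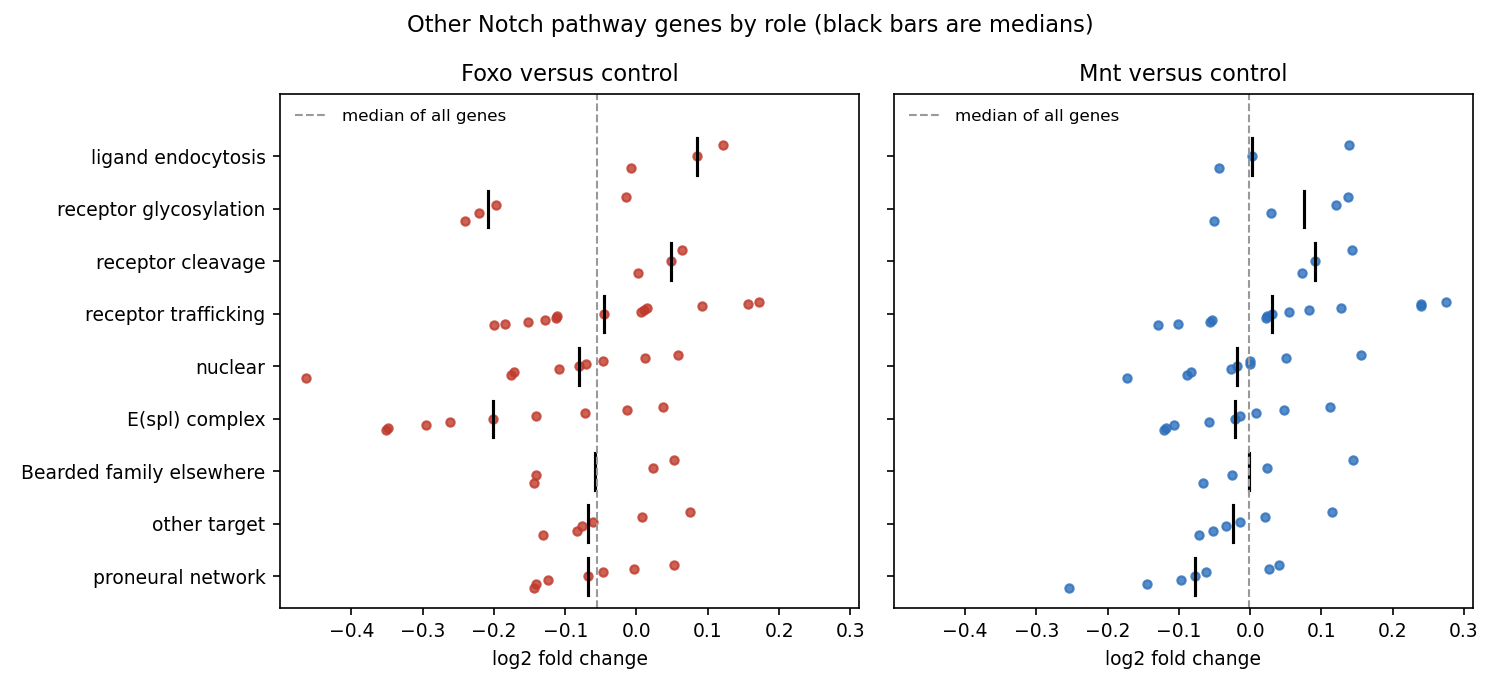
Log2 fold changes of the 58 wider Notch pathway genes by role in Foxo versus control (left) and Mnt versus control (right), 1 point per gene, with black bars at role medians and a dashed line at the median of all genes (-0.06 and -0.00). The E(spl) complex and the glycosylation genes have medians of -0.20 and -0.21 on the left, and 0 of 58 genes passed in either panel.

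The Enhancer of split complex holds the best known Notch outputs, basic helix-loop-helix repressors and Bearded family proteins, and 9 of its 11 listed genes were measured. In Foxo versus control 8 of 9 were lower with a median of -0.20, where 62.6% of all genes were lower with a median of -0.06. In Mnt versus control 6 of 9 were lower with a median of -0.02, where 50.5% of all genes were lower with a median of -0.00. Most were dim: 5 of 9 had a mean signal under 5. E(spl)mbeta-HLH, with the highest signal of the complex, was at 7.45, 7.14 and 7.45 in Foxo replicates 1, 2 and 3, at 7.95, 7.56 and 7.47 in Mnt replicates 1, 2 and 3, and at 7.56, 7.32 and 7.95 in control replicates 1, 2 and 3. Its groups overlapped, and its log2 fold change in Foxo versus control was -0.26 ± 0.19 (limma adjusted p = 0.457). It was -0.41 without control replicate 2, -0.09 without control replicate 3 and -0.16 without the array labelled Foxo 2.

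E(spl)malpha-BFM and E(spl)m2-BFM, both named after their values were seen, had -0.35 ± 0.13 (limma adjusted p = 0.276) and -0.35 ± 0.15 (limma adjusted p = 0.279) in Foxo versus control. E(spl)m2-BFM was at 6.02, 5.77 and 5.98 in Foxo replicates 1, 2 and 3, against 6.18, 6.15 and 6.48 in control replicates 1, 2 and 3. The testis score was set beside these genes. The mean of the 9 genes was lowest in the array labelled Foxo 2, at 4.72, where the testis score was highest at 7.99, and it was 4.86 in Mnt replicate 3, where that score was 7.47, and 4.996 in control replicate 1, where it was 7.09. With the score in the fit the log2 fold changes were -0.11 ± 0.23 (limma SE) for E(spl)mbeta-HLH, -0.17 for E(spl)m2-BFM and -0.27 for E(spl)malpha-BFM. The score itself averaged 7.56 in Foxo and 6.18 in control arrays, so score and group are not independent. The part of testis RNA in these values was not tested. gro, the corepressor that the E(spl) repressors recruit, named after its values were seen, averaged 8.32 ± 0.07 in Foxo and 8.50 ± 0.02 in control arrays (SD, n = 3 each), with a log2 fold change of -0.18 ± 0.06 (limma adjusted p = 0.276).

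**Figure D5:**
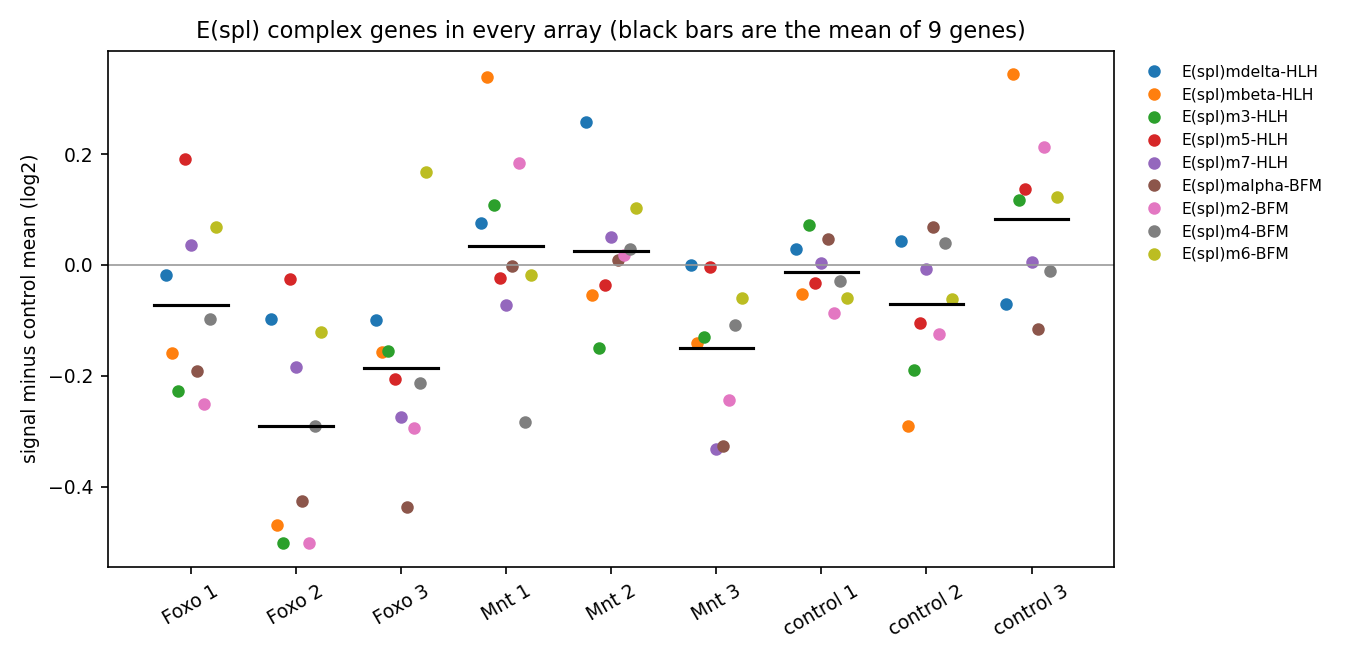
Signals of the 9 measured E(spl) complex genes in every array, each as the difference from its own control mean (log2), with black bars at the mean of the 9 genes. The bars are lowest in the array labelled Foxo 2 and in Foxo replicate 3, and that of Mnt replicate 3 is below all 3 controls.

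For each remaining role the gene with the highest signal was followed. vg, a wing and flight muscle factor among other Notch targets, had a mean of 9.19 over the 9 arrays. emc, an inhibitor of proneural factors, had 10.10, mib2, a ligase needed for muscle integrity, 10.28, Psn, the catalytic part of gamma-secretase, 8.43, and Smr, a corepressor, 9.54. Ocho, of the Bearded family outside the complex, had 4.56, and all 4 measured genes of that family had means under 5, as did 4 of 7 in the proneural network. By limma 0 of these 6 named genes passed an adjusted p under 0.05 in Foxo versus control (0.100% of all genes) or in Mnt versus control (0%). At an unadjusted p under 0.05 the counts were 0 of 6 and 0 of 6, against 17.8% and 3.54% of all genes.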

How the data were processed

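The authors deposited log2 signals made with RMA, per the submitters' processing notes; no RMA version is named there. RMA as usually run equalises probe distributions between arrays, which hides shifts shared by most transcripts, and signals of different probe sets are not amounts. Groups came from sample titles. Control probe sets were left out, and genes were named only from probe sets that the platform annotation assigns to 1 gene, with the brightest probe set per gene. All 9 arrays entered 1 fit with limma 3.58.1 in R 4.3.3 (lmFit, eBayes, intensity trend), two-sided, with 6 residual degrees of freedom. Arrays carry no depth; 3 per group limit precision. No filter on low values was applied. On simulated data over 11982 genes, changes of 1 on the log2 scale were recovered for 80% of 100 genes in Foxo versus control and 87% in Mnt versus control, and changes of 2 for 93% in each. Calls there numbered 179 and 184, against 12 and 0 in the arrays, so these shares need not hold for the arrays. In the arrays foxo had 1.24 ± 0.52 (limma SE) in Foxo versus control (limma adjusted p = 0.279). Mnt had 2.61 ± 0.43 in Mnt versus control (limma adjusted p = 0.450), so neither overexpressed gene passed. Members, lists and alternatives were chosen with earlier results of these data known. The wider list was named by its calls, its 3 highest and 3 lowest genes at or above the median signal in each comparison against control, and the brightest gene of each role. The sequence tables needed to show promoters or proteins were not used here. Each fit was repeated under 24 alternative settings, such as other normalizations, filters, a replicate block and leaving out each array.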

Additional observations from a re-analysis of the deposited data

How the results depend on the processing

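Over 24 alternative settings, 0 of the members other than dx were called in Foxo versus control or in Mnt versus control, and 0 genes of the wider list except at an unadjusted p under 0.05 (6 and 3). That rule called 17.8% and 3.54% of all genes. Leaving out single arrays gave at most 13 and 1 calls among all genes, so a count of 0 there says little about the members. Some filters shrank the lists of 4 members and 58 wider genes. Without the dimmest 40% of genes neur was not tested, and without _s_at and _x_at probe sets H was not. The wider list then held 34 and 51 genes, and 41 without genes under a mean of 5. Over 22 settings the dx difference lay between -1.12 and -0.94 for Foxo minus Mnt and between -0.67 and -0.45 for Foxo versus control. For Mnt versus control it lay between 0.39 and 0.59. These ranges are no support for dx, which was chosen by its values. Its groups did not overlap, so leaving out an array could not turn its sign. Settings that changed only the genes tested or the estimate of spread left its difference as it was. Centring arrays on their medians moved the median of all genes by -0.14 in Foxo versus control and the dx difference there to -0.67. It moved the values of neur, lqf and shrb there to -0.055, -0.016 and -0.045. With it 1 of 4 members, mam, was correlated with the testis score at an adjusted exact permutation p under 0.05 (r = -0.838, against -0.546). The r of numb turned to -0.122, against 0.561. Array medians followed that score, so the p for mam after centring is not a test of mam alone. In Foxo versus control neur was -0.069 after a further quantile normalization, -0.19 with the testis score as covariate and -0.15 with both scores; mam was 0.014 with the testis score. Without single arrays neur ran from -0.23 to 0.36 in Foxo versus control, and in Mnt versus control mam ran from -0.13 to 0.032 and numb from -0.012 to 0.16. Over the same settings H ran from 0.16 to 0.32 in Foxo versus control and from 0.019 to 0.18 in Mnt versus control, both lowest without control replicate 3, as was numb in Foxo versus control (0.089 to 0.26). Without single arrays mam in Foxo versus control ran from -0.10 to -0.011 and neur in Mnt versus control from 0.15 to 0.45. Without _s_at and _x_at probe sets mam was 0.027 in Mnt versus control. The cause of these turns was not tested. Deviations of same-numbered arrays correlated between -0.703 and 0.106, so the numbers were not taken as pairs. The replicate block changed no call of a member (0 of 4 and 0 of 4), with the count over all genes at 0 in Foxo versus control, against 12 without it. That count was 0 to 13 without single arrays (0 without control replicate 2 or 3, 1 without Foxo replicate 1) and 7 with the testis score.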
